A study of Homo sapiens with 24 samples.

Results

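The 10 genes described here are CDKN1A, BTG2, MDM2, TP53INP1, SESN1, GDF15, FAS, GADD45A, GADD45B and PLK3, a set of stress-response genes that p53 or the GADD45 pathway is known for. They were taken from the tables by symbol, with no threshold on a measured value, but were chosen with earlier results of these data known. They make up 10 of the 60308 genes of the exon count table. All 10 passed the filter on low counts (a mean of at least 1 CPM, the count scaled to the library's total) in the exon table. In the intron table, 9 had an entry and 8 passed the same filter.

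The RNA came from U2OS, an established human osteosarcoma cell line. Cells of the Ctrl group received 0.12% DMSO for 2 h, NaAsO2 (sodium arsenite, an oxidative stressor that induces stress granules, SGs) was given at 500 µM for 60 min, RK-33 (an inhibitor of the RNA helicase DDX3) at 6 µM with 1 h of pre-treatment, and Combo cells received RK-33 and then NaAsO2 at the same doses. Lysates were cleared of nuclei by a slow spin, and a faster spin split the cytoplasm into a soluble supernatant and an insoluble pellet enriched for SGs and P-bodies, the cytoplasmic granules of RNA and protein. Each of the 8 treatment-by-fraction groups had 3 replicate libraries, 24 in all, made after rRNA depletion. Per the study's methods, the 3 libraries of a group stem from 3 repeats of the experiment, and the p-values below rest on the spread between them.

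p53 is a transcription factor that is stabilised by DNA damage and other stress, and it switches on genes for cell cycle arrest, DNA repair, antioxidant defence and cell death. One of its targets, MDM2, marks p53 itself for degradation, which closes a feedback loop. GADD45 proteins are small stress sensors that activate the kinase MAP3K4 upstream of p38 and JNK, and their genes respond to p53 as well as to p53-independent signals.

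The libraries held 8627294 to 15376554 exon counts each, and of the members GDF15 had the fewest counts in most libraries (13 to 69). Levels below are CPM scaled with TMM factors, which are shares of the fraction's own library. A soluble and an insoluble level therefore cannot be added up, and fewer cells with an RNA cannot be told apart from less RNA per cell. Of the osteoblast-lineage markers, RUNX2 (45.4 to 92.7 CPM), SPARC (675 to 2545 CPM) and COL1A1 (767 to 7944 CPM) were present in every library and ALPL lay at 5.47 to 17.9 CPM, while COL1A2 ranged from 0 to 2.28 CPM (median 0.159), the markers of mature osteoblasts BGLAP and IBSP stayed below 1 CPM, and so did the median of SP7. Blood cell markers reached at most 2.07 CPM, and of the epithelial markers, KRT18 was present at 87.5 to 335 CPM with EPCAM at no more than 7.29 CPM.

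Replicate 3 of the NaAsO2 insoluble group stood apart from the rest. The signal recognition particle RNA RN7SL1, which is mostly soluble, took 5.79% of its exon counts against 0.426% and 0.798% in the other two replicates, and its correlation with its own group across genes was 0.863 against 0.950 and 0.966. The correlation of replicate 3 with the soluble NaAsO2 group was 0.700, also below the 0.785 and 0.783 of replicates 1 and 2. The osteoblast markers of replicate 3 summed to 9464 CPM, against 2557 and 2989 CPM in replicates 1 and 2. Calls and fold changes that rest on this group are therefore also given without this library, whereas medians over the members and lists, the order of the groups and the correlations with mRNA length and between genes use all 24 libraries.

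Short stretches that resemble the p53 response element are shown first because they mark which members carry such letters near their start. The element is a pair of 10-base half-sites, each built around a CWWG core, where W is A or T. The search took both half-sites without a spacer on either strand, with both cores intact as in the consensus and at most 2 mismatches in the other positions, within 5000 bases on either side of the start of the canonical transcript. Such a stretch was found near 6 of the 10 members, and near 5.08% of the 17276 tested genes with a canonical transcript. The cores are in capitals, all are given on the + strand of GRCh38 with 5 flanking bases on each side, and a match describes the letters only.
CDKN1A, chr6:36676444-36676473, at -2255 from the start: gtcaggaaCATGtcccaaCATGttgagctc
BTG2, chr1:203303637-203303666, upstream and within the divergent transcript BTG2-DT: gggtcacgCATGttcaggCATGcatggaat
GDF15, chr19:18385303-18385332, upstream of the canonical transcript: attgccatCTTGcccagaCTTGtctcgaac
FAS, chr10:88991304-88991333, intron 1: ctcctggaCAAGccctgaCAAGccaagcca
GADD45A, chr1:67686770-67686799, intron 3: gtacagaaCATGtctaagCATGctggggac
GADD45B, chr19:2478016-2478045, exon 4 in the 3′ UTR: acgagagaCTTGgttgaaCTTGgttggtcc

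The GADD45A stretch had 1 mismatch and the other 5 had 2. The stretches of CDKN1A, BTG2 and GADD45A have CATG as the core of both half-sites, those of GDF15 and GADD45B have CTTG and that of FAS has CAAG.

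The heptamer TATTTAT, the core of AU-rich elements that are known to mark short-lived mRNAs, was searched on the transcribed strand of the 3′ UTR. It was present in 7 of the 10 members and in 36.2% of 13416 tested genes with a 3′ UTR. PLK3 and GDF15 held 3 copies each, MDM2, FAS and TP53INP1 held 2, and BTG2 and GADD45A held 1. A copy from each of 4 members that rose in the pellet after NaAsO2 is shown with the heptamer in capitals, on the + strand of GRCh38.
BTG2, chr1:203307530-203307554: atgaagagcTATTTATatatattat
GADD45A, chr1:67688262-67688286: atgaaaagtTATTTATgctataaat
GDF15, chr19:18389039-18389063: aaacagctgTATTTATataagtctg
PLK3, chr1:44805885-44805909: agggggcgtTATTTATggaccactt

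BTG2 and GADD45B were the 2 members that rose in soluble Combo over NaAsO2 (values below), and their promoters are shown for that reason, as the 250 bases before the start in RefSeq's GRCh38.p14 table. Searched on both strands were the TATA box as TATAAA (present in 10.7% of the 35116 promoters in that table), the CCAAT box as those letters (32%), the GC box as GGGCGG (42.6%), the cyclic AMP response element as TGACGTCA (1.65%) and the AP-1 site as TGANTCA (6.57%). The matches, in capitals, were 3 GC boxes and 1 CCAAT box for BTG2, and 1 TATA box with 2 CCAAT boxes for GADD45B.
BTG2, chr1:203305269-203305518, + strand: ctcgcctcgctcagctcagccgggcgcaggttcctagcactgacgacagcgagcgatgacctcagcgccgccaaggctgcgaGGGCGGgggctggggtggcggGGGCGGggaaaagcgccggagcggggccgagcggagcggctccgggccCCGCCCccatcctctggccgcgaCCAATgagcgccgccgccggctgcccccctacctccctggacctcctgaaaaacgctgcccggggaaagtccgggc
GADD45B, chr19:2475877-2476126, + strand: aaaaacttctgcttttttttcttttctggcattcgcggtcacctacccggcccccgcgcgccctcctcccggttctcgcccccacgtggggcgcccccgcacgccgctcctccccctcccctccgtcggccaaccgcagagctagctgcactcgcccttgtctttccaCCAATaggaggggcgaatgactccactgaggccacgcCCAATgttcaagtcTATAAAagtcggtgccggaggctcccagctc

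Per kilobase of exon and averaged over the 24 libraries, CDKN1A was at 66.3, GADD45A at 53.1 and GADD45B at 46.8 CPM, followed by MDM2 at 21.2, BTG2 at 13.4 and PLK3 at 11.7. TP53INP1 stood at 5.90, GDF15 at 1.59, SESN1 at 1.5 and FAS at 0.501 CPM per kilobase, where the FAS value is divided by 27753 bases of merged exons, most of them outside the canonical mRNA of 3696 bases. The genes overlapping the members limit some values, and the authors counted fragments without strand. On the opposite strand, CDKN1A shares its locus with the antisense RNA DINOL, MDM2 with the carboxypeptidase M gene and FAS with ACTA2. PLK3 shares its locus with DYNLT4 and TP53INP1 with NDUFAF6, also on the opposite strand. On the same strand, FAS overlaps STAMBPL1, GDF15 overlaps MIR3189 and SESN1 overlaps RNU6-653P. BTG2, GADD45A and GADD45B overlap no other annotated gene.

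**Figure D1:**
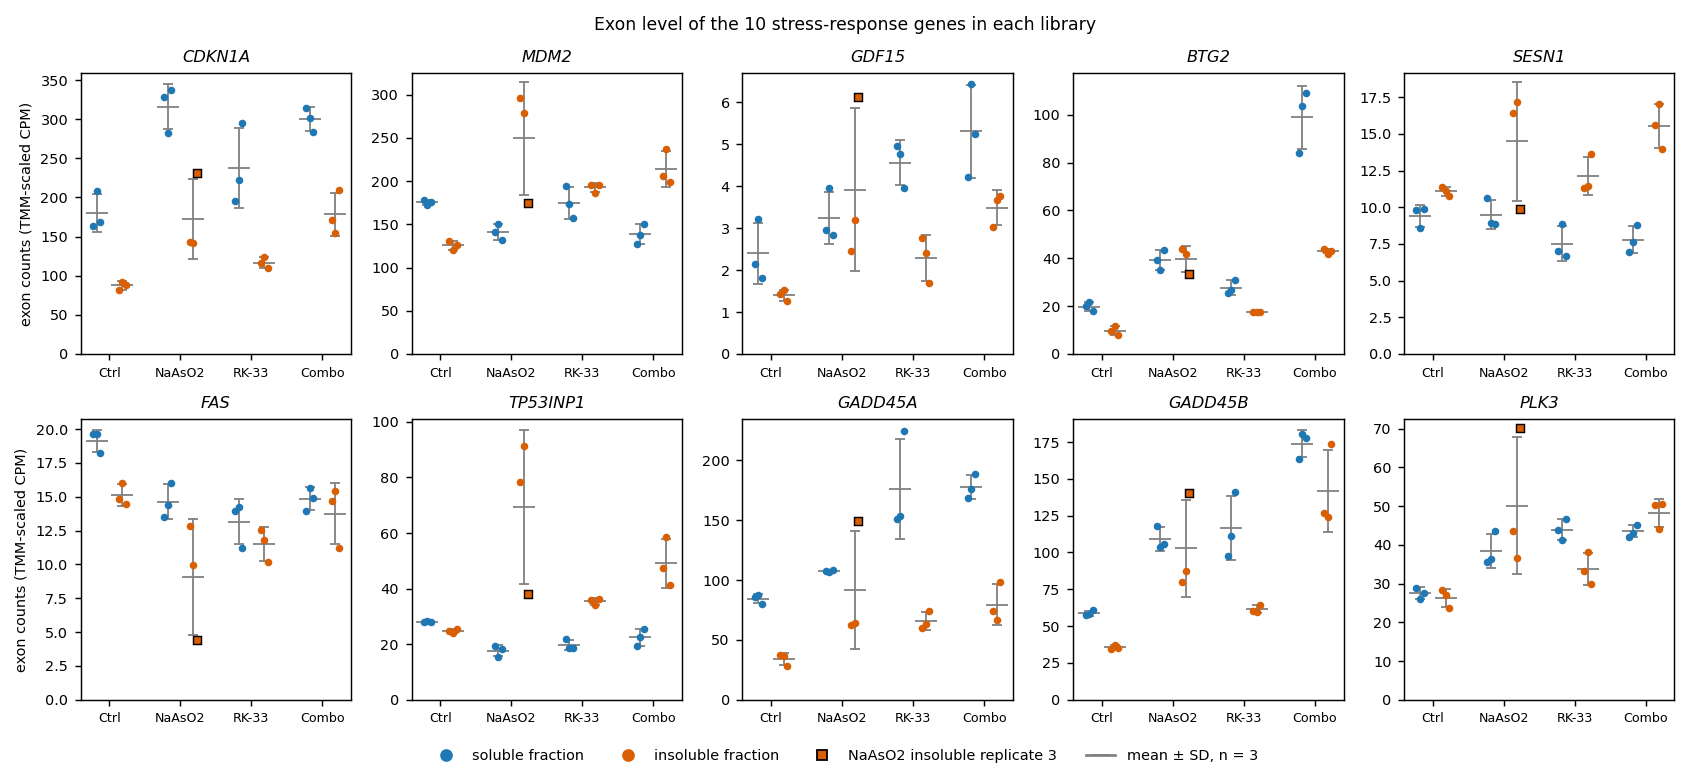
Exon level of each of the 10 genes (y axis, TMM-scaled CPM, from 0) in the 24 libraries by treatment (x axis), with soluble libraries in blue, insoluble libraries in orange, lines and bars for the mean ± SD of 3 libraries and a square for NaAsO2 insoluble replicate 3. BTG2 spans a 10.2-fold range of group means, from Ctrl insoluble to Combo soluble, and the square lies away from its group in most panels.

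The first comparison asks what NaAsO2 did to the members in each fraction. In the soluble cytoplasm, CDKN1A, BTG2 and GADD45B rose by 1.76 to 1.98-fold and TP53INP1 fell, so that 4 of 10 members passed the threshold of an adjusted p under 0.05 where 13% of all tested genes did (5.97% higher and 6.99% lower). Among insoluble RNA, 8 of 10 rose, by 1.89 to 4.13-fold, and FAS fell, where 43.0% of all tested genes were called (21.9% higher and 21.0% lower). The median log2 fold change of the 10 was 0.39 for soluble and 1.21 for insoluble RNA, while the medians over all tested genes were 0.03 and -0.0033.

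CDKN1A, which encodes the cyclin-dependent kinase inhibitor p21, lay at 164, 208 and 168 CPM in the soluble Ctrl libraries and at 328, 283 and 338 CPM after NaAsO2. Its insoluble levels were 82.0, 92.6 and 88.0 CPM in Ctrl and 144, 142 and 232 CPM after NaAsO2. The groups did not overlap in either fraction, and the 232 CPM belonged to replicate 3. The log2 fold changes were 0.81 ± 0.17 (SE, adjusted p = 0.0032) and 0.98 ± 0.17 (adjusted p = 0.000154), and the insoluble one was 0.68 (adjusted p = 0.000205) without replicate 3.

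BTG2, an antiproliferative protein that recruits the CCR4-NOT deadenylase, showed the largest rise of the 10 in the insoluble fraction. Its 9.62, 11.5 and 7.85 CPM in Ctrl became 44.1, 41.6 and 33.6 CPM, a log2 fold change of 2.04 ± 0.15 (adjusted p = 2.17e-09) that was 2.13 without replicate 3. In the soluble fraction, BTG2 went from 20, 21.6 and 17.8 CPM to 39.3, 34.9 and 43.4 CPM (log2 fold change 0.98 ± 0.14, adjusted p = 0.000122). After NaAsO2 the levels of both fractions overlapped, which in Ctrl they did not.

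MDM2 and TP53INP1, a p53-induced protein that feeds back on p53's proapoptotic program, differed between the fractions. MDM2 was at 178, 172 and 176 CPM in soluble Ctrl and at 141, 149.8 and 132 CPM after NaAsO2, a log2 fold change of -0.32 that missed the threshold (adjusted p = 0.138). Its insoluble level rose from 131, 120.5 and 126 CPM to 296, 278 and 175 CPM, with the lowest value in replicate 3 (log2 fold change 0.99 ± 0.14, adjusted p = 1.54e-05, and 1.17 without that replicate). All 3 treated libraries lay above all 3 of Ctrl there.

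TP53INP1 fell from 27.9, 28.3 and 28.1 CPM to 19.4, 15.4 and 18.4 CPM in the soluble fraction (log2 fold change -0.66 ± 0.21, adjusted p = 0.0391). Its insoluble level rose from 24.8, 24.1 and 25.3 CPM to 78.4, 91.2 and 38.2 CPM (log2 fold change 1.49 ± 0.21, adjusted p = 1.04e-05), again with the lowest value in replicate 3 and 1.75 without it. The soluble call was lost without any of the 6 soluble Ctrl and NaAsO2 libraries, Ctrl insoluble replicate 2 or RK-33 insoluble replicate 1, with an adjusted p of up to 0.135.

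The GADD45 genes and the stress kinase PLK3 rose in the pellet. GADD45A went from 37.2, 36.3 and 28.4 CPM to 62.8, 63.9 and 149 CPM, and GADD45B from 34.5, 37.0 and 35.1 CPM to 80.2, 87.7 and 141 CPM. The highest value of each was in replicate 3, and the log2 fold changes of 1.43 ± 0.24 and 1.53 ± 0.17 (adjusted p = 0.000104 and 9.12e-07) became 0.88 and 1.22 without it, both still past the threshold. PLK3 went from 28.3, 26.9 and 23.8 CPM to 43.6, 36.5 and 70.2 CPM (log2 fold change 0.92 ± 0.17, adjusted p = 0.00022, and 0.59 without replicate 3).

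In the soluble fraction, GADD45B was at 57.5, 58.0 and 60.7 CPM in Ctrl and at 118, 103 and 106 CPM after NaAsO2 (log2 fold change 0.90 ± 0.17, adjusted p = 0.0014). GADD45A was at 85.6, 87.7 and 80.3 CPM and then at 108, 107 and 109 CPM, groups that did not overlap, but its log2 fold change of 0.35 missed the threshold (adjusted p = 0.34). PLK3 also had soluble groups apart, at 25.9 to 29 and 35.5 to 43.5 CPM, with a log2 fold change of 0.49 (adjusted p = 0.0592).

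GDF15, a secreted cytokine of the TGF-beta superfamily, was the rarest member. Its insoluble level rose from 1.42, 1.51 and 1.26 CPM to 2.44, 3.19 and 6.13 CPM (log2 fold change 1.43 ± 0.32, adjusted p = 0.00137, and 0.98 without replicate 3). FAS, the death receptor of the TNF receptor family, fell in the same fraction from 14.9, 16.1 and 14.4 CPM to 12.9, 9.92 and 4.44 CPM (log2 fold change -0.70 ± 0.22, adjusted p = 0.0135). The 4.44 CPM was replicate 3, and without it the value was -0.43 (adjusted p = 0.0315). The call was lost without Ctrl insoluble replicate 2 (-0.62, adjusted p = 0.0616). FAS thereby went the opposite way to the other 8 genes called in the pellet.

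SESN1, a sestrin of antioxidant and mTORC1 signalling, was at 11.4, 11.1 and 10.8 CPM in insoluble Ctrl and at 16.5, 17.2 and 9.85 CPM after NaAsO2. Replicate 3 overlapped Ctrl, the log2 fold change of 0.40 ± 0.17 missed the threshold (adjusted p = 0.0657), and without that replicate it was 0.58 (adjusted p = 0.00264). All 10 members were then called, where 42.7% of all tested genes were.

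**Figure D2:**
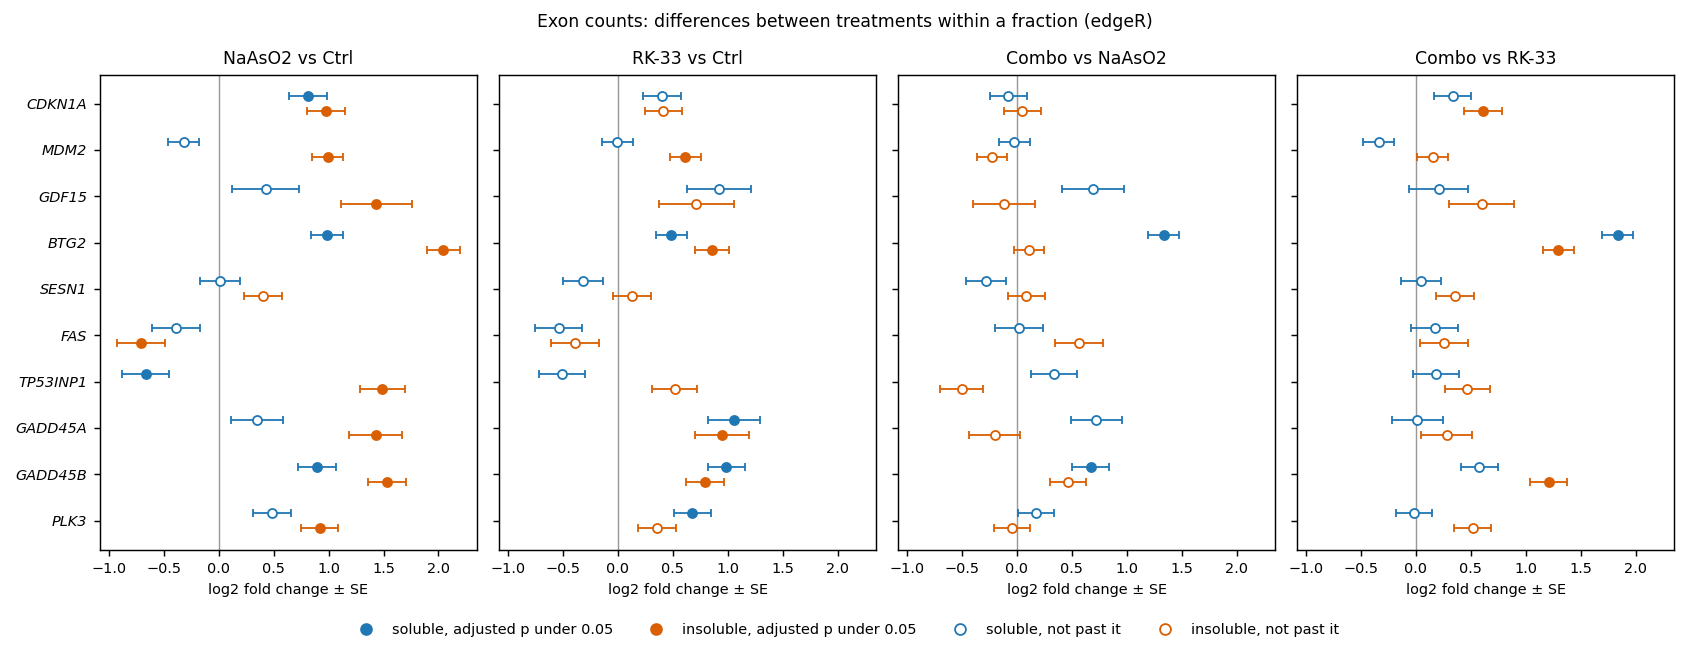
Log2 fold change of the exon counts of each gene (x axis, bars ± SE) in 4 treatment comparisons within the soluble (blue) and insoluble (orange) fraction, with filled points for an adjusted p under 0.05 by edgeR. In the first panel, TP53INP1 lies at -0.66 in the soluble and at 1.49 in the insoluble fraction, and in the third, BTG2 and GADD45B are the filled points.

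RK-33 without NaAsO2 raised GADD45A, GADD45B and BTG2 in both fractions. PLK3 passed the threshold as well in the soluble fraction and MDM2 in the insoluble one, so 4 of 10 members were called in each, where 5.19% and 13.9% of all tested genes were. None of the 10 was called lower, and the medians over the members were 0.44 and 0.57, against -0.01 and 0.00091 over all genes.

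GADD45A lay at 151, 153 and 225 CPM in the soluble RK-33 libraries, all above the 80.3 to 87.7 CPM of Ctrl. It was at 59.6, 63.2 and 73.9 CPM in the insoluble fraction, above 28.4 to 37.2 CPM. The log2 fold changes were 1.06 ± 0.24 (adjusted p = 0.0086) and 0.95 ± 0.24 (adjusted p = 0.0101). The soluble call was lost without RK-33 soluble replicate 3, the 225 CPM library (0.85, adjusted p = 0.0764), in which RN7SL1 took 15.5% of exon counts against 8.42% and 9.13% in the other two. The insoluble call was lost without Ctrl insoluble replicate 3 (0.83, adjusted p = 0.0578).

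GADD45B was at 98.0, 111 and 141 CPM in soluble RK-33 libraries, and at 60.2, 59.5 and 64.7 CPM in insoluble ones. Both groups lay above their Ctrl libraries, with log2 fold changes of 0.99 ± 0.17 (adjusted p = 0.00111) and 0.79 ± 0.17 (adjusted p = 0.00319). Each of these calls held when any 1 of the 24 libraries was left out.

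BTG2 was tightly grouped at 17.6, 17.5 and 17.4 CPM in the insoluble fraction, above its 7.85 to 11.5 CPM in Ctrl (log2 fold change 0.86 ± 0.15, adjusted p = 0.000474). Its soluble 25.4, 26.7 and 31.1 CPM gave a smaller value of 0.49 ± 0.14 close to the threshold (adjusted p = 0.0473), and this call was lost when any of 17 libraries was left out in turn, the 6 soluble Ctrl and RK-33 libraries among them (adjusted p of up to 0.239). PLK3 rose to 43.8, 41.4 and 46.7 CPM in the soluble fraction (log2 fold change 0.68 ± 0.17, adjusted p = 0.018), a call lost without Ctrl soluble replicate 2 or 3 or RK-33 soluble replicate 3, with an adjusted p of up to 0.0889.

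MDM2 rose in the insoluble fraction under RK-33. Its 196, 186 and 196 CPM in the pellet lay above the 120.5 to 131 CPM of Ctrl (log2 fold change 0.62 ± 0.14, adjusted p = 0.00458), while its soluble 194, 174 and 157 CPM straddled the Ctrl values. GDF15 at 4.96, 4.76 and 3.96 CPM in the soluble fraction lay above its Ctrl libraries, but with a log2 fold change of 0.92 and an adjusted p of 0.0702. CDKN1A (log2 fold change 0.40, adjusted p = 0.207) and FAS (-0.54, adjusted p = 0.172) did not pass in that fraction, and TP53INP1 did not pass in either (-0.51 and 0.52).

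Combo was set against NaAsO2 to ask what RK-33 adds under oxidative stress. BTG2 and GADD45B rose further in the soluble fraction, 2 of 10 members where 6.42% of all tested genes were called. BTG2 reached 84.0, 104 and 109 CPM, its highest level in any group and above the 34.9 to 43.4 CPM of NaAsO2 (log2 fold change 1.33 ± 0.14, adjusted p = 1.1e-06). GADD45B reached 164, 180.5 and 178 CPM, above 103 to 118 CPM (0.67 ± 0.17, adjusted p = 0.0178), a call lost without NaAsO2 soluble replicate 3 (adjusted p = 0.0833) or Combo soluble replicate 2 (adjusted p = 0.0634).

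GADD45A was at 169, 176 and 188 CPM in the same libraries, above the 107 to 109 CPM of NaAsO2, with a log2 fold change of 0.72 that did not pass (adjusted p = 0.0654). They overlapped the libraries of RK-33 given without NaAsO2, at 151 to 225 CPM. CDKN1A, at 314, 302 and 283 CPM, overlapped the NaAsO2 libraries.

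Between insoluble libraries, no member passed by edgeR's quasi-likelihood test of Combo against NaAsO2, where 13.7% of all tested genes did. DESeq2 also called 0 members and the edgeR likelihood ratio test called 1, and 3 members had an unadjusted p under 0.05. FAS had a log2 fold change of 0.57 (adjusted p = 0.0804), TP53INP1 of -0.50 (adjusted p = 0.0867) and GADD45B of 0.47 (adjusted p = 0.0635). Without NaAsO2 insoluble replicate 3, 3 members passed where 11.5% of all genes did, namely GADD45B at 0.77 (adjusted p = 0.000138), MDM2 at -0.41 (adjusted p = 0.00943) and TP53INP1 at -0.77 (adjusted p = 9.36e-05). Same-numbered libraries of these 2 groups deviated together, and with the replicate number as a block in the fit of all libraries, GADD45B was called at 0.48 (adjusted p = 0.0303), as 1 member of 10. Combo insoluble replicate 3 deviated together with the library left out (correlation 0.82). It held 174 CPM of GADD45B, against 127 and 124 CPM in Combo insoluble replicates 1 and 2. Leaving out the NaAsO2 library alone kept this Combo library in the fit, here and in the interaction and ratio tests below.

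Combo was also set against RK-33, which gives the NaAsO2 effect in inhibited cells. BTG2 was the member called in both fractions, with log2 fold changes of 1.83 ± 0.14 (adjusted p = 7.57e-09) in the soluble and 1.29 ± 0.14 (adjusted p = 2.96e-06) in the insoluble fraction. It was the 1 called of 10 in the soluble fraction, where 3.61% of all genes were. In the insoluble fraction, 7.32% of all genes were called and 3 of 10 members rose, with GADD45B from 59.5 to 64.7 CPM up to 127, 124 and 174 CPM (log2 fold change 1.21 ± 0.17, adjusted p = 6.89e-05). CDKN1A went there from 110.0 to 124 CPM up to 171, 155 and 209 CPM (0.61 ± 0.17, adjusted p = 0.0303), a call lost without Combo insoluble replicate 3 (adjusted p = 0.128) or any of the RK-33 insoluble libraries.

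The difference between the NaAsO2 effects with and without RK-33 was tested itself, as an interaction. In the soluble fraction, the effect on BTG2 was larger with RK-33 by 0.85 ± 0.20 on the log2 scale (adjusted p = 0.0249), and BTG2 was the 1 member called where 2.07% of all genes were. Among insoluble libraries, where 11.5% of all genes were called, the effect was smaller with RK-33 for MDM2, by -0.84 ± 0.20 (adjusted p = 0.00869), for TP53INP1, by -1.02 ± 0.29 (adjusted p = 0.0233), for GADD45A, by -1.15 ± 0.34 (adjusted p = 0.0297), and for BTG2, by -0.75 ± 0.20 (adjusted p = 0.0202). For FAS, which fell with NaAsO2 in the absence of RK-33, the difference was 0.96 ± 0.31 (adjusted p = 0.0466). RK-33 without NaAsO2 had by itself raised MDM2 (0.62), GADD45A (0.95) and BTG2 (0.86) in the pellet. With all libraries in the fit, 0 of 10 members were called there between Combo and NaAsO2.

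Without NaAsO2 insoluble replicate 3, the 5 members called for the insoluble interaction stayed past the threshold, where 17% of all genes were called. MDM2 was then at -1.02, TP53INP1 at -1.29 and BTG2 at -0.84, each farther from 0, whereas GADD45A at -0.61 and FAS at 0.68 were nearer. The FAS call was lost when any of 19 libraries was left out in turn, 8 of the 12 insoluble ones among them, with an adjusted p of up to 0.139. That of GADD45A was lost without Ctrl insoluble replicate 3, RK-33 insoluble replicate 2 or 3 or Combo insoluble replicate 1 or 2 (up to 0.0761), and that of TP53INP1 without NaAsO2 insoluble replicate 2, Ctrl insoluble replicate 1 or 2 or Combo insoluble replicate 1 (up to 0.0583). BTG2 lost its insoluble call without Ctrl insoluble replicate 3 (-0.60, adjusted p = 0.0692), and its soluble one without NaAsO2 replicate 1 or 2, Ctrl replicate 1, Combo replicate 2 or 3 or RK-33 replicate 2 of that fraction (up to 0.069).

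Fractions were compared within each treatment to ask where each mRNA lay. In Ctrl, 5 of 10 members were lower in the insoluble than in the soluble fraction and none was higher, where 51% of all tested genes were called (24.6% higher and 26.4% lower). These were GADD45A (log2 ratio -1.32 ± 0.24, adjusted p = 0.000116), CDKN1A (-1.04 ± 0.17), BTG2 (-1.03 ± 0.15), GADD45B (-0.72 ± 0.17) and MDM2 (-0.48 ± 0.14, adjusted p = 0.00709). The median over the 10 was -0.60, against -0.02 over all genes.

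After NaAsO2, 3 members were higher in the pellet and 2 lower, where 57.8% of all genes were called. TP53INP1 had a log2 ratio of 1.97 ± 0.21 (3.93-fold, adjusted p = 4.08e-08), MDM2 of 0.83 ± 0.14 (adjusted p = 2.79e-05) and SESN1 of 0.63 ± 0.18 (adjusted p = 0.00404). CDKN1A stayed lower at -0.88 ± 0.17, and FAS was lower at -0.66 ± 0.22. Without replicate 3, 61.1% of all genes and 7 members were called, with TP53INP1 at 2.23, MDM2 at 1.00, SESN1 at 0.80, CDKN1A at -1.18 and FAS at -0.39, and with GADD45A at -0.80 and GADD45B at -0.41 added on the soluble side.

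Under RK-33, SESN1 (0.68 ± 0.18) and TP53INP1 (0.85 ± 0.21) were higher in the insoluble fraction. CDKN1A (-1.02 ± 0.17), GDF15 (-0.99 ± 0.29), BTG2 (-0.66 ± 0.14), GADD45A (-1.43 ± 0.24) and GADD45B (-0.92 ± 0.17) were lower, so that 7 of 10 were called where 59.6% of all genes were. With same-numbered fractions taken as 1 lysate and paired as a block, PLK3 was called lower as well (-0.38, adjusted p = 0.0343). In Combo, 6 of 10 were called, where 52.2% of all genes were. SESN1 (1.00 ± 0.17), TP53INP1 (1.13 ± 0.20) and MDM2 (0.63 ± 0.14) were higher in the pellet, and CDKN1A (-0.75 ± 0.17), BTG2 (-1.20 ± 0.14) and GADD45A (-1.16 ± 0.24) lower. CDKN1A was thus called lower in the pellet under all 4 treatments, as was GADD45A once NaAsO2 insoluble replicate 3 was left out.

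**Figure D3:**
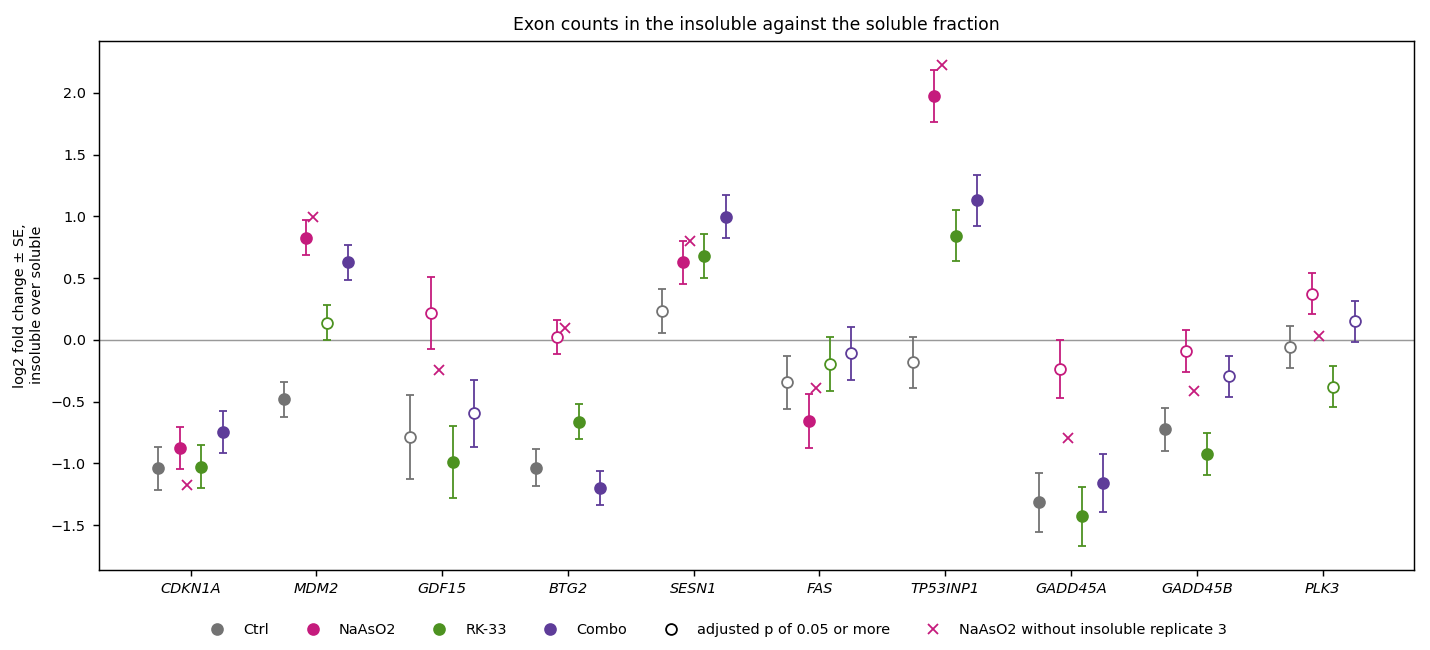
Log2 ratio of insoluble to soluble exon counts (y axis, bars ± SE) for each gene under the 4 treatments (colours), with open points for an adjusted p of 0.05 or more and crosses for NaAsO2 without insoluble replicate 3. TP53INP1 goes from near 0 in Ctrl to 1.97 after NaAsO2, MDM2 from -0.48 to 0.83, and CDKN1A stays below 0 under each treatment.

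Whether NaAsO2 changed the fraction ratio was tested as a difference of ratios. It moved towards the pellet for TP53INP1 by 2.15 ± 0.29 on the log2 scale (4.45-fold, adjusted p = 2.26e-05), for MDM2 by 1.31 ± 0.20 (adjusted p = 7.98e-05), for GADD45A by 1.08 ± 0.34 (adjusted p = 0.0237) and for BTG2 by 1.06 ± 0.20 (adjusted p = 0.000731), 4 of 10 members where 22.3% of all genes were called. Without replicate 3, 28.9% of all genes were called, with TP53INP1 at 2.42, MDM2 at 1.48, BTG2 at 1.14 and GADD45A at 0.53 (adjusted p = 0.0493), and SESN1 was added at 0.57 (adjusted p = 0.0436). The GADD45A call was lost without Ctrl insoluble replicate 3 (adjusted p = 0.0694).

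RK-33 without NaAsO2 gave no call for a difference of ratios among the 10 by edgeR's quasi-likelihood test, where 2.02% of all genes had one. DESeq2 and the edgeR likelihood ratio test each called 1 member, and 2 had an unadjusted p under 0.05. TP53INP1 had the largest value of these at 1.03 (adjusted p = 0.0697), followed by MDM2 at 0.62 (adjusted p = 0.115). Between Combo and NaAsO2, the ratio of BTG2 differed by -1.23 ± 0.19 (adjusted p = 0.00336), where 0.368% of all genes were called. Its soluble level was higher in Combo (log2 fold change 1.335), while its level in the pellet was not called different (0.11, adjusted p = 0.608). Without NaAsO2 insoluble replicate 3 the difference of ratios for BTG2 was -1.32. TP53INP1 then passed as well at -1.11 (adjusted p = 0.00111), and 1.53% of all genes were called.

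Group means put the members into different orders. For MDM2 and TP53INP1, the 3 highest groups were NaAsO2 insoluble, Combo insoluble and RK-33 insoluble, with means of 69.3 ± 27.7, 49.1 ± 8.74 and 35.5 ± 1.18 CPM for TP53INP1 (SD, n = 3). For both genes the ranges of the first 2 of these overlapped, and the third lay apart from the second. CDKN1A was highest in NaAsO2 soluble at 316 ± 29.4 CPM, followed by Combo soluble at 299.7 ± 15.3 CPM, which overlapped it. BTG2 had 5 of its 7 neighbouring pairs of groups apart, and its Combo soluble mean of 98.9 ± 13.2 CPM was 10.2 times that of Ctrl insoluble at 9.66 ± 1.83 CPM.

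For SESN1, all 4 insoluble groups ranked above all 4 soluble ones, and the step between them (Ctrl insoluble at 11.1 ± 0.306 and NaAsO2 soluble at 9.48 ± 1.00 CPM) was the one pair of neighbours whose ranges did not overlap. FAS was highest in soluble Ctrl at 19.2 ± 0.817 CPM and below that in every other group. GADD45B had its highest means in Combo, at 174 ± 9.18 CPM soluble and 142 ± 27.9 CPM insoluble, and PLK3 varied least, with 1.90 times between its extreme groups.

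The members in the pellet tended to be those with long mRNAs. Over the 10, the Spearman correlation of canonical mRNA length with the log2 ratio of insoluble to soluble counts was 0.588 in Ctrl, 0.564 after NaAsO2, 0.879 under RK-33 and 0.685 in Combo, given as a description across genes. TP53INP1 (5605 bases), SESN1 (5664 bases) and MDM2 (7490 bases) are the longest, and GDF15 (1200 bases), GADD45A (1352 bases) and GADD45B (1371 bases) the shortest. Over 17276 genes, the same correlation was 0.299, 0.384, 0.345 and 0.421.

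Intron counts are fragments that fell on intron sequence in these cytoplasmic fractions. Of the 8 members tested, BTG2 rose after NaAsO2 in both fractions, and RK-33 raised GADD45A introns in both. TP53INP1 introns had 0 counts in every library, in a gene that lies on the opposite strand within NDUFAF6, and GADD45B had no entry in the intron table, so neither is described.

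After NaAsO2, BTG2 was called in the soluble fraction with a log2 fold change of 1.70 ± 0.31 (3.24-fold, adjusted p = 0.00095), 1 of 8 members where 5.29% of all introns tested were. In the pellet, 5 of 8 rose, where 31.3% of all were called: BTG2 by 2.61 ± 0.40, CDKN1A by 1.60 ± 0.24, PLK3 by 1.43 ± 0.31, GDF15 by 2.05 ± 0.60 and GADD45A by 0.67 ± 0.20. Some of these rest on few fragments: the Ctrl pellet held 5, 5 and 3 intron counts of BTG2 and 7, 1 and 3 of GDF15. CDKN1A had 181 to 189 there. Without replicate 3, 21.4% of all were called, BTG2 (2.74), CDKN1A (1.13) and PLK3 (1.11) kept their calls, GADD45A (0.53, adjusted p = 0.0628) and GDF15 (1.45, adjusted p = 0.115) lost them (GDF15 also without Ctrl insoluble replicate 2) and MDM2 was added on the lower side (-0.65, adjusted p = 0.0018).

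RK-33 raised GADD45A introns by 1.54 ± 0.18 (2.90-fold, adjusted p = 1.09e-06) in the soluble and by 1.66 ± 0.18 (3.16-fold, adjusted p = 3.96e-07) in the insoluble fraction. GADD45A was the 1 of 8 members called in each, where 1.07% and 2.80% of all introns were. In the pellet, introns made up 19.2, 21.4 and 18.2% of its counts, against 13.9, 10.9 and 14.1% in Ctrl.

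Combo raised the introns of CDKN1A, BTG2 and PLK3 over NaAsO2 in both fractions. In the soluble fraction, where 14.4% of all introns were called, these and GADD45A (0.89 ± 0.18) were the 4 called of 8, with CDKN1A at 1.62 ± 0.23 (3.07-fold, adjusted p = 9.84e-06), BTG2 at 1.75 ± 0.24 and PLK3 at 1.09 ± 0.34. The PLK3 call was lost without NaAsO2 soluble replicate 2 or 3 or Combo soluble replicate 1 or 2 (adjusted p of up to 0.129). In the pellet, where 26.6% of all were called, CDKN1A rose by 1.10 ± 0.23, BTG2 by 1.62 ± 0.27, PLK3 by 1.19 ± 0.27 and FAS by 1.52 ± 0.48, and MDM2 fell by 0.96. Without NaAsO2 insoluble replicate 3 the values were 1.57, 1.49 and 1.52 for CDKN1A, BTG2 and PLK3 and -0.47 for MDM2, 23.4% of all were called, and FAS (1.15, adjusted p = 0.0888) lost its call, as it did without Combo insoluble replicate 2 (adjusted p = 0.165). FAS had 9, 4 and 1 intron counts in the NaAsO2 pellet and 17, 30 and 9 in the Combo pellet.

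Against RK-33, BTG2 introns rose 10.6-fold in the soluble fraction (log2 fold change 3.41 ± 0.27, adjusted p = 1.27e-10) and 8.33-fold in the insoluble one (3.06 ± 0.29). The RK-33 libraries held 16, 14 and 14 intron counts of BTG2 in the soluble and 10, 17 and 6 in the insoluble fraction. CDKN1A (1.47 and 1.96) and PLK3 (1.45 and 2.17) rose as well in both, and MDM2 (-1.18 and -1.12) and GADD45A (-0.64 and -0.88) fell in both. SESN1 rose in the soluble fraction by 0.87 ± 0.23, a call lost without Combo soluble replicate 3. These were 6 and 5 of 8 members, where 28.7% and 29.8% of all introns were called.

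The intron share of CDKN1A, its intron counts as a percentage of its exon plus intron counts, separated Combo from every other group. It was 26.6, 29.9 and 34.9% in soluble and 31.5, 32.8 and 33.3% in insoluble Combo libraries. In the other 6 groups it ran from 8.20% to 22.2%. How many of all genes set Combo apart in this way was not counted, here or for BTG2 below. Over all genes, introns took 22 ± 5.62% of counts in soluble Combo and 27.5 ± 4.47% in insoluble Combo libraries (SD, n = 3), against 15.8 ± 2.74% and 21.4 ± 3.73% after NaAsO2 and 20.6 ± 2.53% and 33.4 ± 2.86% in Ctrl. DINOL, which lies in the CDKN1A locus, had 43 to 52 exon counts in soluble Combo libraries and 14 to 78 over all libraries. CDKN1A introns had 1379 to 1696 counts in soluble Combo libraries. The part of antisense RNA in the CDKN1A intron counts was not tested.

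BTG2 had intron shares of 11.6 to 13.1% in soluble and 11.8 to 13.4% in insoluble Combo libraries, above each library of the other 6 groups, in which it ran from 2.21% to 9.78%. PLK3 reached 16.2, 19.7 and 14.8% in insoluble Combo libraries, against 8.03, 3.82 and 8.03% after NaAsO2. MDM2 had 20.3, 17.8 and 18.6% in insoluble Ctrl libraries and 4.74, 3.92 and 4.38% in insoluble Combo libraries, which overlapped those of NaAsO2. In the NaAsO2 pellet it had 3.86 and 2.93% in replicates 1 and 2 and 14.6% in replicate 3.

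The shares of 8 genes were compared in 8 treatment comparisons, 64 pairs in all. With 3 libraries on each side, an exact permutation test (two-sided) cannot go below p = 0.1, which after adjustment over the 64 was 0.206, so no pair passes the threshold. The exon and intron tests above are therefore the ones with a call.

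**Figure D4:**
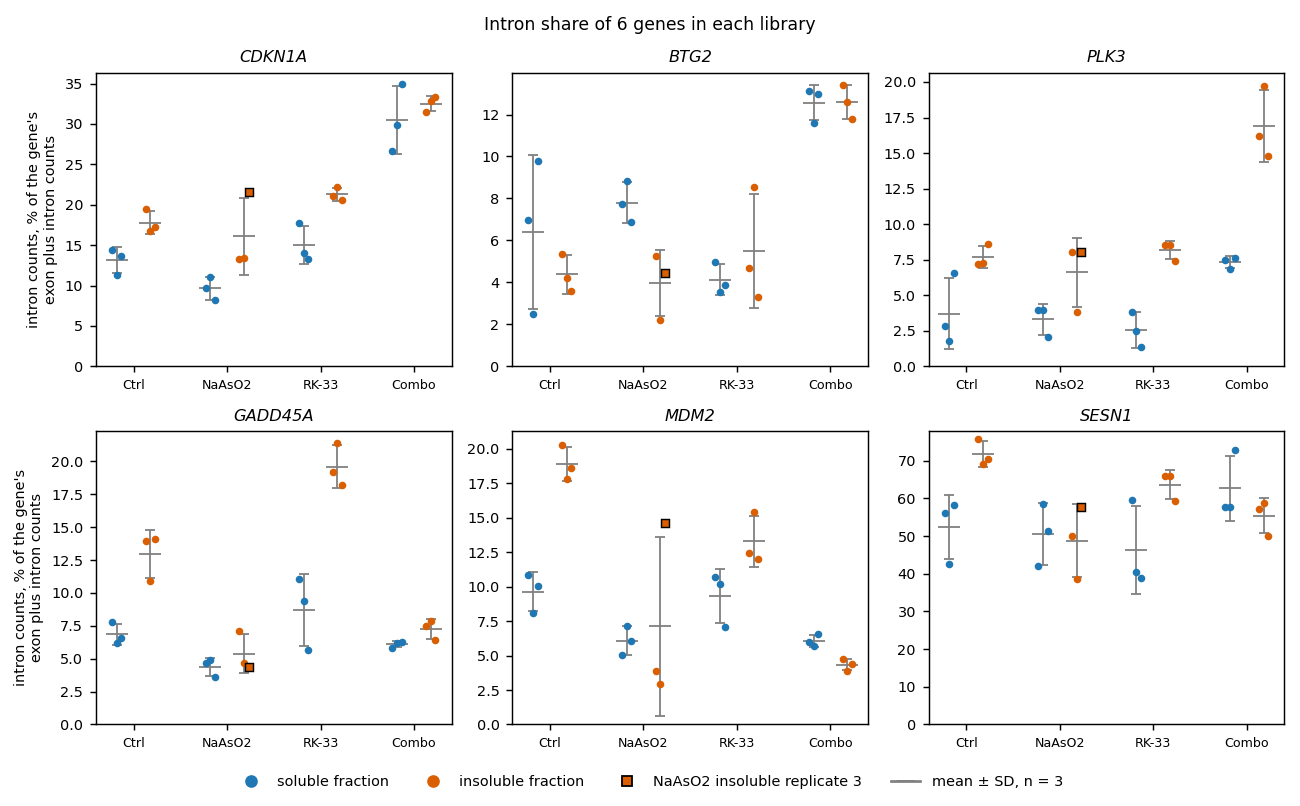
Intron counts as a percentage of exon plus intron counts (y axis, from 0) for 6 genes in each library by treatment (x axis), with soluble libraries in blue, insoluble in orange, bars for the mean ± SD of 3 libraries and a square for NaAsO2 insoluble replicate 3. CDKN1A and BTG2 are highest in the 6 Combo libraries, at 26.6% or more and 11.6% or more, GADD45A is highest in the RK-33 pellet, and the MDM2 square at 14.6% lies apart from 3.86 and 2.93%.

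Other p53 target genes were counted from a list of 39, of which 36 were tested. After NaAsO2, 4 rose and 3 fell in the soluble fraction, where 5.97% of all tested genes were called higher and 6.99% lower. PMAIP1 (0.48), BBC3 (0.79) and BAX (0.48), which promote apoptosis, rose there with the phosphatase PPM1D (0.48), and SUSD6 (-0.53), FBXW7 (-0.47) and TNFRSF10B (-0.48) fell. In the pellet, 21 rose and 3 fell (19 and 4 without replicate 3), where 21.9% of all genes were called higher and 21.0% lower. BBC3 was at 1.94, PMAIP1 at 1.17, PPM1D at 0.90 and the repressor E2F7 at 0.68, and RPS27L (-0.80), PERP (-0.52) and DDB2 (-0.35) were lower. Without replicate 3, these were 1.38, 1.10, 0.66 and 0.63, and -0.70, -0.38 and -0.46, all still called. The median log2 fold changes of the list were 0.28 and 0.53, against 0.03 and -0.0033 over all genes.

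RK-33 without NaAsO2 raised 3 and lowered 1 of the 36 in the soluble fraction, and raised 4 and lowered 4 in the insoluble one, where 5.19% and 13.9% of all genes were called. Its medians were 0.10 and 0.11, against -0.01 and 0.00091 over all genes. Combo against NaAsO2 raised 5 in the soluble fraction (6.42% of all genes were called), among them BTG1 (0.96), a relative of BTG2, and SESN2 (1.02), a relative of SESN1, and lowered RPS27L (-0.50). In the insoluble fraction it raised 1, BTG1 (0.94, and 0.75 without NaAsO2 insoluble replicate 3), and lowered 4 (2 and 2 without that replicate), where 13.7% of all genes were called and 11.5% without it. The fraction ratio moved towards the pellet with NaAsO2 for 10 of the 36 and away from it for 3, where 22.3% of all genes were called (13 and 6 without that replicate, where 28.9% were).

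Of the p53 regulators, 15 of 17 were tested, and NaAsO2 raised 4 and lowered 4 in the soluble and raised 5 and lowered 3 in the insoluble fraction, where 13% and 43.0% of all genes were called. The medians of these regulators were 0.30 and -0.06. MDM4, the relative of MDM2 that holds p53 inactive, fell in both fractions (-0.37, adjusted p = 0.0432, and -0.51, adjusted p = 0.00202, or -0.60 in the pellet without replicate 3). RK-33 without NaAsO2 raised 1 of the 15 in the soluble fraction and lowered 1 in the insoluble one, where 5.19% and 13.9% of all genes were called.

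Of the GADD45 and p38 genes, 10 of 11 were tested. In the pellet, 3 rose and 1 fell after NaAsO2, where 43.0% of all genes were called, and the median of the list was 0.11. MAPKAPK2 (0.97), a kinase activated by p38, and the MAP kinase kinases MAP2K3 (0.63) and MAP2K7 (0.48) rose, and the JNK gene MAPK8 (-0.60) fell there. Without replicate 3, 5 rose and 1 fell, where 42.7% of all genes were called, with MAPKAPK2 at 0.60, MAP2K3 at 0.46, MAP2K7 at 0.35 and MAPK8 at -0.34. MAPK14, which encodes p38-alpha, rose under RK-33 in the insoluble fraction (0.35). GADD45G, the other member of the GADD45 family, was below the filter at 0 to 1.11 CPM.

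A list of RNAs known to stay in the nucleus summed to 11210 to 15780 CPM in soluble and 7201 to 9184 CPM in insoluble Ctrl libraries. After NaAsO2 the sums were lower, at 6394 to 8675 and 2550 to 3653 CPM, and in insoluble Combo libraries they lay at 5842 to 6485 CPM. These sums are mostly MALAT1 (1332 to 15080 CPM over all libraries). Of the 4 list genes tested, 3 were higher and 1, MALAT1, was lower in the Ctrl pellet, where 24.6% of all tested genes were called higher and 26.4% lower. The median log2 ratio of the list was 1.39, so the sum and the median went opposite ways between the fractions. MEG3 stayed at or below 0.107 CPM and RN7SK had 0 counts. The part of nuclear RNA in the intron counts of the members was not tested.

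The genes most like each member were taken by the Pearson correlation of log2 levels over the means of the 8 groups, among those with at least 10 CPM on average. BTG2 was most like ZFP36 (0.996), with EGR1 (0.971) also among its first 3. GADD45B was most like NFIL3 (0.987), ANKRD1 (0.979) and DDIT4 (0.971), and PLK3 like HES1 (0.955), JUNB (0.954) and DUSP1 (0.952). For CDKN1A these were RFFL (0.982), IP6K2 (0.979) and H2AX (0.978), and for GADD45A they were CDC42EP3 (0.972), UBALD1 (0.972) and NOCT (0.970).

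TP53INP1 was most like INAFM2 (0.977), DYRK1A (0.977) and SOX4 (0.972), SESN1 like PDK3 (0.983) and TDG (0.980), and MDM2 like CYREN (0.970) and ZNF426 (0.961). GDF15 was most like TPD52L2 (0.976), DEDD2 (0.964) and NOCT (0.960), and FAS like CTSH (0.970), SASS6 (0.958) and BMP5 (0.955). NOCT was thereby near both GDF15 and GADD45A, and no member was among the first 3 genes of another. These correlations rest on 8 group means that share libraries between comparisons and are given as a description.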

How the data were processed

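The 24 libraries of 2 cytoplasmic fractions of U2OS cells fell into 8 groups by their labels. The authors aligned reads with STAR 2.7.2b to GRCh38.p13 and deposited raw counts per GENCODE gene. Exons and introns were counted apart from uniquely aligned fragments with Subread featureCounts, without strand. Genes that overlap on opposite strands therefore cannot be told apart by strand. The tables hold 60308 and 37473 genes. Of the 394 circRNAs in a further deposited count table, 0 have a member as host, and those counts were not used.

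Counts were tested with edgeR 4.0.16 (quasi-likelihood, R 4.3.3) in one fit of all libraries, with TMM factors and genes of a mean of at least 1 CPM (17666 exon and 17406 intron entries). A gene was called at a Benjamini-Hochberg adjusted p under 0.05 over all tested genes. A standard error is the log2 fold change divided by the square root of its F statistic. The method was tested on simulated data. Replicates differed with a chi-square per degree of freedom of 2.49 to 150.0, so none was taken as a repeated library. Same-numbered libraries were compared by the correlation of their deviations from the group means. All 3 values were over 0.1 for NaAsO2 with Combo insoluble (0.664, 0.676 and 0.82) and for no other pair of treatments. The deviations of the 3 libraries of a group sum to 0, so these 3 values are not independent. A replicate 3 that deviates alike in both groups bears on all of them. Whether the numbers pair these samples was not tested further, and the block is given as an alternative only. The protocol splits each lysate into both fractions, and the paper compared them within a treatment by a paired t-test. The labels do not say that same-numbered fractions share a lysate. That match was assumed for the lysate block. The deviations of such pairs correlated with a median of 0.04, and 4 of 12 were over 0.1. All 10 members are described, and from the lists at most the 4 genes with the smallest adjusted p per direction, plus MDM4, PPM1D and GADD45G. Some genes that these rules pick are not reported here. Members and lists were chosen with earlier results of these data known. Of the p53 list, the p53 regulators, the GADD45 and p38 genes, the nuclear RNAs and the cell type markers, counts or levels are given. Alternatives were DESeq2 1.42.0, the edgeR likelihood ratio test, other scalings and filters, exon plus intron counts, the compared groups alone, a replicate block, a minimum log2 fold change of 1 in size, and each library left out in turn. Counts of the gene lists without NaAsO2 insoluble replicate 3 were added after seeing the data. Tables and figures used Python 3.11.15, pandas 2.3.3, scipy 1.17.1 and matplotlib 3.10.9.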

Additional observations from a re-analysis of the deposited data

Results flagged for a closer look

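The effects of NaAsO2 on the exon counts of several members differed between conditions by a test of the difference itself. With RK-33 against without it in the insoluble fraction, the log2 difference was -1.02 for TP53INP1, -0.84 for MDM2, -1.15 for GADD45A, -0.75 for BTG2 and 0.96 for FAS. Without NaAsO2 insoluble replicate 3, these were -1.29, -1.02, -0.61, -0.84 and 0.68. In the soluble fraction, the difference for BTG2 was 0.85, so that BTG2 had a larger NaAsO2 effect with RK-33 in the soluble and a smaller one in the insoluble fraction.

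Between the fractions, NaAsO2 had a larger effect in the pellet for TP53INP1 by 2.15, for MDM2 by 1.31, for GADD45A by 1.08 and for BTG2 by 1.06 on the log2 scale. Without that replicate, these were 2.42, 1.48, 0.53 and 1.14. The change of BTG2 from NaAsO2 to Combo differed between the fractions by -1.23, and by -1.32 without that replicate. The effects share Ctrl and NaAsO2 libraries, so they are not independent of each other. Groups of 3 libraries were not tested for single values far from the others.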

How the results depend on the processing

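Of 1626 values of single genes under the other settings, 1453 kept their direction and their side of the threshold, 95 passed it newly, 76 no longer passed it and 2 changed sign, none of them a called value. The 2 were SESN1 with exon plus intron counts, at -0.23 for NaAsO2 against Ctrl in the insoluble fraction and -0.29 for the NaAsO2 change of the fraction ratio. Library size alone moved the median of all genes by -0.189 to 0.186. Among smaller shifts, DESeq2, RLE size factors and the likelihood ratio test added PLK3 for NaAsO2 soluble (5 members), and exon plus intron counts put PLK3 in the place of TP53INP1 there. The counts of members called that moved by over 1.5 times were these. DESeq2 gave 2 for Combo against RK-33 soluble and 1 for the RK-33 change of the fraction ratio. A minimum log2 fold change of 1 in size left 0 and 5 for NaAsO2 (soluble and insoluble), 1 and 0 for RK-33, 1 for Combo against NaAsO2 soluble, 3, 1, 2 and 3 for the fractions in Ctrl, NaAsO2, RK-33 and Combo, and 0 and 2 for the interaction. The compared groups alone gave 8 for NaAsO2 soluble, 7 and 8 for RK-33, 6 for Combo against NaAsO2 soluble, 2 for Combo against RK-33 soluble, 3 for the fractions in NaAsO2, 2 and 0 for the RK-33 and Combo changes of the ratio, 4 and 0 for the interaction, and for introns 3 and 2 for NaAsO2, 2 and 3 for RK-33 and 1 for Combo against NaAsO2 insoluble. Exon plus intron counts gave 2 for Combo against NaAsO2 insoluble, 3 for Combo against RK-33 soluble and 0 for the soluble interaction. For Combo against NaAsO2 insoluble, the likelihood ratio test, library size alone, a mean of at least 10 CPM and no filter each gave 1, and for Combo against RK-33 soluble each gave 2. The ratio change by RK-33 became 1 with the likelihood ratio test, the stricter filter and no filter. Library size alone gave 3 for the insoluble interaction and 2 for NaAsO2 introns soluble. The likelihood ratio test gave 2 for the introns of NaAsO2 and RK-33 soluble, the stricter filter 3 for those of NaAsO2 and of Combo against NaAsO2 insoluble, and no filter 3 for NaAsO2 soluble and 2 for RK-33 in each fraction, 2 for the Combo ratio change and 0 for the soluble interaction. The cause was not tested.

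With each library left out in turn, the counts ran from 3 to 8 for NaAsO2 soluble, 1 to 8 and 3 to 8 for RK-33, 1 to 4 and 0 to 3 for Combo against NaAsO2, 1 to 3 and 2 to 5 for Combo against RK-33, 0 to 2 and 1 to 2 for the ratio changes by RK-33 and Combo, 0 to 3 and 2 to 5 for the interaction, and for introns 1 to 3 for NaAsO2 soluble and 1 to 2 for RK-33 in each fraction. GDF15 introns of Combo against NaAsO2 insoluble, not called, ran from -0.70 to 0.21. In the other treatment comparisons, not all 3 correlations of a pair of groups were over 0.1. With the replicate number as a block, GADD45B was added for Combo against NaAsO2 insoluble (1 member) and Combo against RK-33 soluble (2 members), GADD45A for Combo against NaAsO2 soluble (3 members), and BTG2 was lost for RK-33 soluble (3 members). Pairing the same-numbered fractions of a treatment, taken as a lysate, changed no call but that of PLK3 under RK-33.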
